A study of Mus musculus with 35 samples.

Results

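The proteasome genes were followed in laser-dissected lumbar motoneurons of mice. Members were all probe sets that named a single gene whose symbol starts with Psma, Psmb, Psmc, Psmd, Psme or Psmf and a digit. The rule took in 95 of the 34958 single-gene probe sets on the array, for 45 genes. By role they were 8 genes of the 20S alpha ring, 8 of the beta ring with the thymus subunit Psmb11 counted in, 3 immunoproteasome subunits, 6 ATPases and 14 other genes of the 19S cap, and 4 activators or inhibitors. Psmc3ip and Psme3ip1 match the rule by spelling but encode no proteasome subunit, and were kept in a class of their own. Psme2 was no member, because its probe set also names Psme2b.

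Each of 35 arrays held the amplified RNA of 300 motoneurons of 1 female mouse. SOD1 mice, the transgenic ALS model, were hemizygous B6.Cg-Tg(SOD1-G93A)1Gur/J with a high copy number of mutant human SOD1 carrying G93A, and controls (WT) were C57BL/6J. At week 11, labelled as before onset, 6 WT and 8 SOD1 mice were sampled, with no treatment named. At week 15, the symptomatic stage, there were 7 WT mice, for which no pump is described, 7 SOD1 mice given vehicle and 7 SOD1 mice given G-CSF (filgrastim) at 30 µg/kg/day. Vehicle and G-CSF came from subcutaneous osmotic minipumps worn for 4 weeks. A mouse line with normal human SOD1 was not analysed here, so mutation and transgene copies cannot be told apart, nor can week and cohort.

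As background, the proteasome degrades proteins tagged with ubiquitin. Its 20S core is a barrel of alpha rings, which gate the entry, and beta rings, of which Psmb5, Psmb6 and Psmb7 cut proteins. The 19S cap binds ubiquitin chains, removes them and unfolds the substrate with a ring of ATPases. Other caps (Psme1 with Psme2, Psme3, Psme4) open the barrel without ATP, and Psmf1 binds the core as an inhibitor in vitro. Interferon replaces the cutting subunits by Psmb8, Psmb9 and Psmb10 to form the immunoproteasome, which makes peptides for antigen presentation. When proteasome capacity is short, the factor Nfe2l1, processed with the help of Ngly1 and Vcp, switches on subunit genes through antioxidant response elements in their promoters. Loss of proteasome function and protein aggregates have long been studied in motoneurons of SOD1 mice.

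The element was looked for in the promoter windows of RefSeq (GRCm38.p6, windows of equal length, mostly upstream of the start), as TGACNNNGC or TGAGNNNGC on either strand, forms that differ in the fourth base. A window was at hand for 36 proteasome genes, and 15 of them (41.7%) held a match, against 30.8% of 27025 genes with a window. Of the 6 genes with a window that were called in the difference between weeks, 2 held one (Psmc2 and Psme4). The upstream stretches of 3 genes are printed because they show what such a match looks like. They are an ATPase called between weeks, a cap subunit called only with vehicle at week 15 and a catalytic subunit that was not called. The match is in capitals, the one printed lies on the gene's own strand in all 3, and it is a description of letters, not a shown binding site. The window of Psmd12 held another match, of TGACNNNGC on the opposite strand at positions -247 to -239 from the start.
Psmc2 (chr5:21786587-21786647, + strand): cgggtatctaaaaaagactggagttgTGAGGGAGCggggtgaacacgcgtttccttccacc
Psmd12 (chr11:107479474-107479527, + strand): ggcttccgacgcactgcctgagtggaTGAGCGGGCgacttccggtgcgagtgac
Psmb5 (chr14:54618008-54618068, - strand): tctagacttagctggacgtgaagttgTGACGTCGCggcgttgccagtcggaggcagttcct
In the ATPase gene Psmc2 the match began 134 bases before the start, in the lid gene Psmd12 28 bases before it and in the catalytic gene Psmb5 47 bases before it.

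Values are log2 intensities after GCRMA, so a difference of 1 is a factor of 2, and levels of different probe sets were not compared. A probe set passed the filter if it exceeded 2.40 on at least 4 arrays and varied enough (SD over arrays of at least 0.241): 77 member probe sets for 43 genes did, and Psmb9 and Psmb11 did not. Called means an unadjusted p under 0.05, an adjusted p under 0.1 (limma, Benjamini-Hochberg over 31352 probe sets) and a fold change of at least 1.5. All 7 motoneuron markers measured exceeded the filter level on all 35 arrays and 5 of them the array median, but the defining marker Chat was dim (2.49 to 5.00, above the median on 12 arrays). Of 13 microglial markers 5 also lay above the median on all arrays. The microglial list was higher in vehicle SOD1 than in WT mice at week 15 (5 of 11 filtered markers called, mean level 4.18 to 5.35 against 3.52 to 4.04), the neuronal list lower (2 of 8 called). Of all probe sets 1.72% were called higher and 4.2% lower there. In the motoneuron and oligodendrocyte lists 1 marker each was called lower, and in the astrocyte, endothelial and lymphocyte lists none was called. The part of these markers in the results was not tested, and fewer cells of a type and less RNA per cell cannot be told apart in such samples. The arrays of WT week 11 mouse 6 and of vehicle mice 5 and 3 lay farthest from their group on the first 3 principal components.

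The proteasome leaned to higher levels in SOD1 motoneurons at week 11 and to lower levels at week 15. At week 11, 60 of the 77 filtered probe sets lay above WT, with a median difference of 0.25 against -0.01 over all filtered probe sets. Called higher were 2 of them, for the 19S ATPase Psmc5 and the nuclear activator Psme3, and none was called lower, against 1.13% higher and 0.188% lower of all probe sets. At week 15, 53 of 77 lay below WT in vehicle-treated SOD1 mice, the median was -0.19 against 0.02, and 6 probe sets were called lower, for Psmb7, Psmd4, Psmd6, Psmd7, Psmd12 and Psme4. None was called higher. That is 7.79% of the filtered members, against 4.2% called lower and 1.72% called higher of all probe sets.

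The SOD1 effect at week 15 minus that at week 11 tests whether the effect differs between weeks, not whether its sign changes. No gene called higher at week 11 was called lower at week 15. Pumps are described only for SOD1 mice of week 15, so pump and SOD1 effect cannot be told apart at that week. Of the 77, 60 lay below 0 and 9 were called lower, for Psmc2, Psmc5, Psmd4 (2 probe sets), Psmd6, Psmd7, Psmb7, Psme3 and Psme4, and none was called higher. These 11.7% stand beside 2.15% called lower and 0.778% called higher of all probe sets, and the members' median of -0.48 beside 0.02. Both called at week 11 and 4 of the 6 called at week 15 were among the 9. In 46 of the 77 (59.7%) the difference was above 0 at week 11 and below 0 at week 15, a pattern that 26.1% of all filtered probe sets had. At a mean of at least 8 it was 26 of 34 members (76.5%) beside 46.1% of 3476 probe sets. Marker lists of neurons and oligodendrocytes also had medians below 0 between weeks: the medians at week 11, at week 15 and between weeks were 0.27, -0.45 and -0.75 for 8 filtered general neuronal markers, 0.00, -0.32 and -0.91 for 7 motoneuron markers and 0.37, -0.13 and -0.63 for 9 oligodendrocyte markers. Called lower between weeks were 1, 2 and 2 of them, beside 2.15% of all probe sets. The 8 astrocyte and 5 endothelial markers had medians of -0.20 and -0.15 between weeks, with 1 and 0 called lower. The 11 microglial markers had 0.91, with 1 called higher beside 0.778% of all, and the 1 filtered lymphocyte marker 1.24. The part of these lists in the members' shift was not tested.

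**Figure D1:**
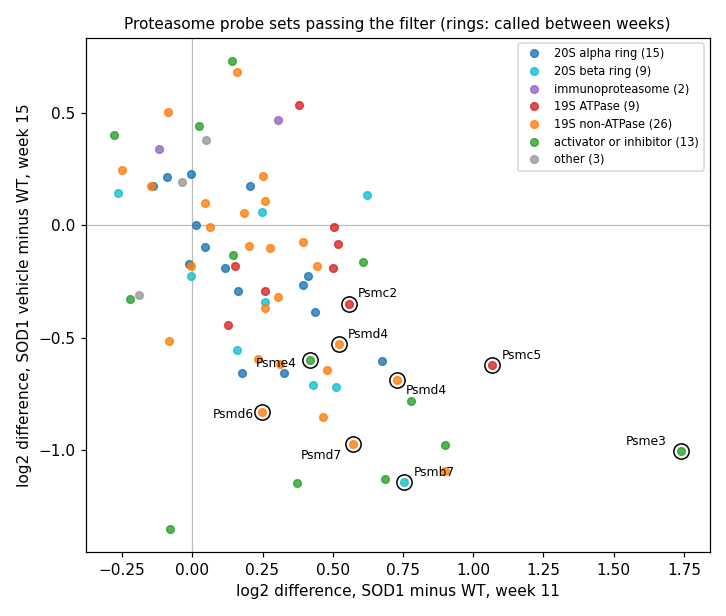
Each point is 1 of the 77 filtered proteasome probe sets, with the log2 difference between SOD1 and WT mice at week 11 on the x axis and between vehicle SOD1 and WT mice at week 15 on the y axis, coloured by class. The lower right part (above 0 on x, below 0 on y) holds 46 of them, and the 9 ringed points are those called in the difference between weeks.

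Bright probe sets in general shared part of this shift between weeks. Of the probe sets with a mean between 8 and 10, 25 were members: 24 of the 25 lay above 0 at week 11 (median 0.39, against 0.09 for all 2731), and 2 at week 15 (median -0.38 against -0.24). Called lower at week 15 were 3 of these 25, while 12.6% of all probe sets of that brightness were, so the week 15 share of bright members was not above that of other bright probe sets. In the difference between weeks 6 of the 25 were called lower, against 5.9%. At a mean between 6 and 8 none of 10 members was called lower there, against 4.57%, although all 10 lay below 0 (median -0.89 against -0.37). At a mean above 10 none of 9 was, against 6.04%, and their median of -0.22 was close to the -0.25 of all. The spread of values over an array also moved with the groups: its mean SD was 2.30 in WT and 2.36 in SOD1 at week 11, and 2.29 in WT, 2.22 with vehicle and 2.23 with G-CSF at week 15. With the array SD as a covariate no member was called in any comparison of SOD1 with WT or between weeks (medians of 0.04, 0.00 and -0.06 for week 11, week 15 and the difference), and the count over all probe sets fell too (from 919 to 3 for the difference). Whether array spread stands behind the members' shift or follows from such shifts was not tested.

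Mouse by mouse, the median deviation of the 77 probe sets from their own means ran from 0.22 to 0.45 in the 8 SOD1 mice at week 11 (median 0.37) and from -0.22 to 0.29 in the 6 WT mice (median 0.15). At week 15 it ran from -0.14 to 0.09 in WT, from -0.48 to -0.06 with vehicle and from -0.42 to -0.06 with G-CSF (medians of -0.02, -0.23 and -0.10). The SOD1 mice at week 11 overlapped with WT mice of that week, and the vehicle mice with WT mice of theirs. The lowest in their groups were WT week 11 mouse 6 and vehicle mouse 3, whose arrays also had the smallest SD. Without the 3 arrays that stood apart the counts were 3 higher at week 11, 4 lower at week 15 and 4 lower in the difference, while 1.12%, 5.48% and 0.644% of all probe sets were called in either direction. Without WT mouse 6 alone they were 0 at week 11 and 3 in the difference, beside 0.74% and 0.584% of all. The 3 kept were Psmc5, Psme3 and the dimmer Psmd4 probe set, and the calls of Psmc2, Psmd6, Psmd7, Psmb7, Psme4 and the brighter Psmd4 probe set were lost.

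**Figure D2:**
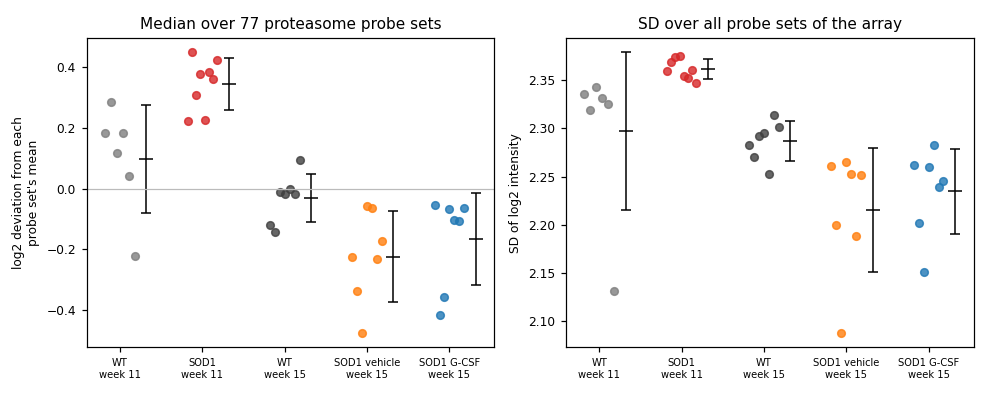
Left, the median over the 77 filtered proteasome probe sets of the log2 deviation from each probe set's mean, 1 point per mouse in 5 groups, with the mean and SD as a bar. Right, the SD of log2 intensity over all probe sets of the same arrays: both are highest in SOD1 mice at week 11, and the lowest points of the WT week 11 and vehicle groups are the same mice in both panels.

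The ATPases (Psmc1 to Psmc6) form the ring that unfolds substrates. All 9 of their filtered probe sets lay above 0 at week 11, with a median of 0.50, and 8 of 9 lay below 0 at week 15. Psmc5 was at 6.24 to 9.08 in WT mice at week 11 (median 8.42) and at 8.50 to 9.54 in SOD1 mice (median 9.23). Of the 8 SOD1 mice 7 lay above every WT mouse, and the gene was 2.10-fold higher (log2 difference 1.07, SE 0.30, adjusted p 0.0874). At week 15 it was at 7.78 to 8.45 in WT (median 8.05) and at 5.88 to 7.97 with vehicle (median 7.75), a difference of -0.62 that was not called (adjusted p 0.238). Between the weeks Psmc5 was called lower (-1.69, SE 0.42, adjusted p 0.0535). The week 11 call of Psmc5 held in 4 of the 14 refits without a single mouse, and without WT mouse 6 the difference was 0.70 (adjusted p 0.287). The call between weeks was kept in all 28 such fits.

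Psmc2 was called between weeks only (-0.91, SE 0.28, adjusted p 0.09997, at the edge of the threshold, and kept in 7 of 28 fits without 1 mouse). Its levels at week 11 were 9.26 to 10.52 in WT (median 10.34) and 10.40 to 10.99 in SOD1 mice (median 10.76), at week 15 8.78 to 10.04 in WT (median 9.88) and 8.79 to 9.68 with vehicle (median 9.49). The groups overlapped at both weeks. A second, bright probe set of Psmc2 varied too little for the filter, and in a fit without the filter its difference between weeks was -0.00 (SE 0.11). Psmc6 had a difference of -0.44 at week 15 (adjusted p 0.0375) and -0.57 between weeks (adjusted p 0.0979), short of the 1.5-fold minimum. Of 2 Psmc4 probe sets, the dimmer had 0.50 at week 11, -0.01 at week 15 and -0.51 between weeks. The brighter lay above every WT mouse of the same week in all 8 SOD1 mice at week 11 (difference 0.38, not called). The same held for all 7 vehicle and all 7 G-CSF mice at week 15 (0.54 and 0.31), and between weeks this probe set had 0.16. It was at 8.69 to 8.98 in WT at week 15 (median 8.87) and at 9.02 to 9.98 with vehicle (median 9.42), with no overlap, and its difference of 0.54 (SE 0.14, adjusted p 0.0201) was also below the fold minimum. When arrays were brought to the same SD, or quantile-normalised, this Psmc4 probe set was called higher at week 15 (0.67).

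**Figure D3:**
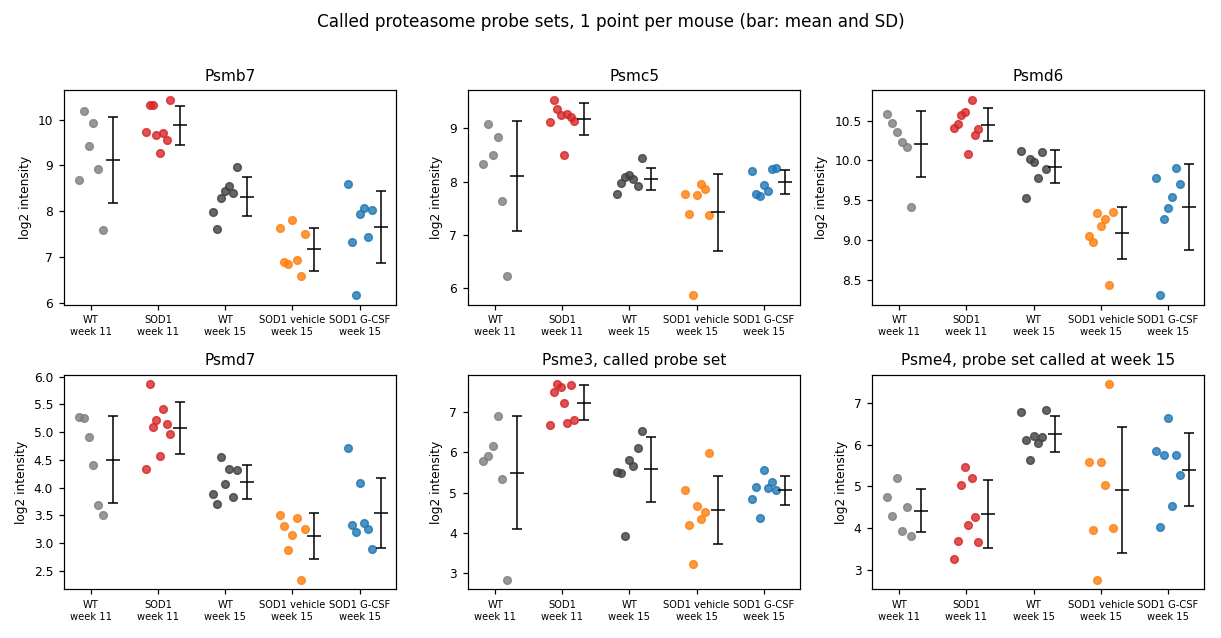
Log2 intensity of 6 called proteasome probe sets in every mouse, by group, with the mean and SD as a bar; the y axes differ between panels. Psmd6 and Psmd7 show no overlap between WT and vehicle mice at week 15, and the low WT week 11 point of Psmc5 at 6.24 is mouse 6.

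Among the other 19S genes (Psmd1 to Psmd14: scaffolds, ubiquitin receptors, the deubiquitinating lid and assembly chaperones), 21 of 26 filtered probe sets lay above 0 at week 11 and 18 lay below 0 at week 15. No probe set was called at week 11, 4 were called lower at week 15 and 4 between weeks, beside 4.2% and 2.15% of all probe sets. Of all probe sets with a mean between 8 and 10, 12.6% and 5.9% were called lower in the same order. Psmd6, a lid subunit, was at 9.53 to 10.12 in WT mice at week 15 (median 9.98), at 8.44 to 9.36 with vehicle (median 9.18) and at 8.31 to 9.91 with G-CSF (median 9.55). All 7 vehicle mice lay below all WT mice. The gene was 1.78-fold lower with vehicle (-0.83, SE 0.19, adjusted p 0.0117), and differed between weeks by -1.08 (SE 0.27, adjusted p 0.0569). A second bright probe set of Psmd6, removed by the filter on spread, lay at 10.44 to 10.87 in WT and 10.58 to 11.05 with vehicle, a difference of 0.09 (SE 0.11) in the fit without a filter. The 2 probe sets of this gene thus disagree, and which transcripts each reads was not analysed here.

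**Figure D4:**
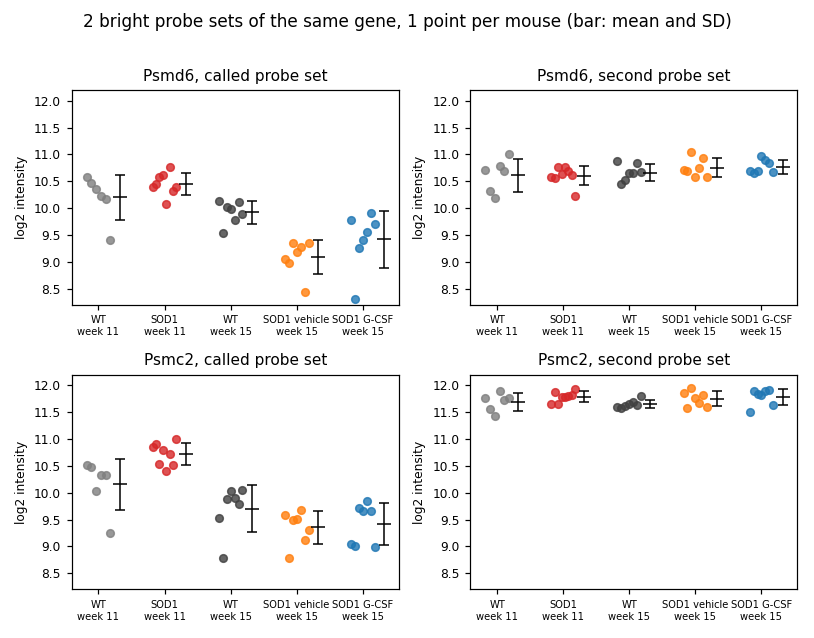
Log2 intensity of 2 bright probe sets each for Psmd6 and Psmc2, 1 point per mouse, with the mean and SD as a bar and 1 y axis for all panels. The called probe sets on the left spread from 8.31 to 10.76 (Psmd6) and from 8.78 to 10.99 (Psmc2), while the second probe sets, removed by the filter on spread, keep within 10.18 to 11.05 (Psmd6) and 11.43 to 11.96 (Psmc2).

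Psmd7, the lid partner of the deubiquitinase Psmd14, was at 3.69 to 4.55 in WT mice at week 15 (median 4.06) and at 2.34 to 3.51 with vehicle (median 3.26), again without overlap. It was 1.96-fold lower (-0.97, SE 0.28, adjusted p 0.0421) and differed between weeks by -1.54 (SE 0.40, adjusted p 0.0596), on a dim probe set. At week 11 it was at 3.51 to 5.28 in WT (median 4.66) and at 4.33 to 5.86 in SOD1 (median 5.12), which overlap. Its other filtered probe set had -0.01 at week 15, and one outside the filter 0.29 (SE 0.09). The calls of Psmd6 and Psmd7 at week 15 were kept in all 14 fits that left out 1 mouse.

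The ubiquitin receptor Psmd4 moved the same way at 2 of its 3 probe sets. The brighter was at 8.54 to 9.75 in WT and 9.24 to 10.17 in SOD1 at week 11 (medians 9.36 and 9.90), and at 8.71 to 9.27 in WT and 7.55 to 8.93 with vehicle at week 15 (medians 8.96 and 8.58). Its groups overlapped at both weeks, and it was called between weeks (-1.05, SE 0.26, adjusted p 0.0561). The dimmer was at 3.80 to 4.73 in WT at week 15 (median 4.50) and at 3.54 to 3.94 with vehicle (median 3.67), with 5 of 7 vehicle mice below all WT mice. It was called at week 15 (-0.69, SE 0.23, adjusted p 0.0869, kept in 3 of 14 fits without 1 mouse) and between weeks (-1.42, SE 0.33, adjusted p 0.043). The third, outside the filter, had a difference of 0.19 (SE 0.12) at week 15.

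Psmd12, a lid subunit, was at 9.37 to 9.90 in WT at week 15 (median 9.74) and at 8.61 to 9.49 with vehicle (median 9.19), and 5 of 7 vehicle mice lay below all WT mice. It was 1.51-fold lower (-0.60, SE 0.19, adjusted p 0.067), just over the fold minimum, and the call was kept in 7 of 14 fits without 1 mouse. Without vehicle mouse 3 it was -0.51 (adjusted p 0.145). The largest difference between weeks among these 26 probe sets, -2.00 for one of the lid gene Psmd11, was not called (adjusted p 0.129). Of the assembly chaperones, Psmd9 lay higher with vehicle at both its brighter probe sets (0.68 and 0.50, adjusted p 0.176 and 0.142) and Psmd5 lower (-0.52, adjusted p 0.103), none of them called. Psmd14, which cuts off the ubiquitin chains, had a difference of -0.01 at week 11 and -0.18 at week 15.

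The alpha ring (Psma1 to Psma8) had no call between SOD1 and WT mice in either week. Of its 15 filtered probe sets 11 lay above 0 at week 11 (median 0.16) and 10 below 0 at week 15 (median -0.19). The lowest adjusted p of the ring at week 11 was for Psma5, at 9.08 to 9.53 in WT (median 9.25) and at 9.41 or above in SOD1 (median 9.60), where 7 of 8 exceeded all WT values, with a difference of 0.41 that was not called (adjusted p 0.235). For Psma3 the only filtered probe set was near background (mean 2.44), while a bright one (mean 10.59) varied too little for the filter. So did a second probe set of Psma5 (mean 10.62). In the fit without the filter the bright Psma3 probe set had 0.19 at week 11, -0.10 at week 15 and -0.29 between weeks. The second Psma5 probe set had 0.04, 0.16 and 0.12 in the same order. For Psma6 the brightest filtered probe set (mean 11.51) had -0.14, 0.18 and 0.32 in that order. The next brightest (mean 9.31) had 0.40, -0.27 and -0.66, so the probe sets disagree, and neither was called here. Psma8, a subunit of the testis, was near background (mean 2.43).

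Of the beta ring, 7 of 9 filtered probe sets lay above 0 at week 11 (median 0.26) and 6 below 0 at week 15 (median -0.34), and Psmb7 was called. Psmb7, the subunit with trypsin-like activity, was at 7.61 to 8.96 in WT mice at week 15 (median 8.39), at 6.59 to 7.81 with vehicle (median 6.95) and at 6.18 to 8.61 with G-CSF (median 7.95). Of the 7 vehicle mice 5 lay below every WT mouse. It was 2.21-fold lower with vehicle (-1.14, SE 0.32, adjusted p 0.0399), a call kept in all 14 fits without 1 mouse. At week 11 it was at 7.59 to 10.19 in WT (median 9.18) and 9.27 to 10.43 in SOD1 (median 9.72), a difference of 0.75 that was not called (adjusted p 0.365). Between weeks Psmb7 was lower by a log2 difference of -1.90 (SE 0.46, adjusted p 0.0516), and -1.59 without WT week 11 mouse 6 (adjusted p 0.103).

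The other cutting subunits did not pass. Psmb5, of chymotrypsin-like activity, was at 10.09 to 10.51 in WT at week 15 (median 10.28) and at 9.74 to 11.22 with vehicle (median 10.33), with a difference of 0.06 (SE 0.19, adjusted p 0.894). Psmb6, of caspase-like activity, was at 11.08 to 11.45 and 10.63 to 11.27 (medians 11.21 and 11.13), with a difference of -0.22 (SE 0.12, adjusted p 0.284). Their differences at week 11 were 0.25 (SE 0.19) and -0.00 (SE 0.12). Among the structural beta subunits, Psmb4 had -0.72 and Psmb2 -0.71 at week 15, neither called (adjusted p 0.269 and 0.324). A bright second probe set of Psmb4 outside the filter had 0.03 (SE 0.09).

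Of the immunoproteasome, Psmb8 (mean 2.92 over all arrays) and Psmb9 (2.97, outside the filter) were near the filter level of 2.40, and Psmb10 (4.82) was above it. No immunoproteasome probe set was called between SOD1 and WT mice at either week. Psmb10, the inducible counterpart of Psmb7, was at 3.71 to 4.69 in WT mice at week 15 (median 4.18), at 3.90 to 5.06 with vehicle (median 4.79) and at 4.50 to 5.75 with G-CSF (median 4.77). The vehicle mice lay 0.47 above WT (SE 0.22, adjusted p 0.236) and the G-CSF mice 0.75 (SE 0.22, adjusted p 0.118), with 6 of 7 G-CSF mice above every WT mouse. Without the 3 arrays that stood apart, none of which is in these 2 groups, the G-CSF difference was called (adjusted p 0.0505). Psmb8 differed by 0.34 with vehicle (SE 0.24, adjusted p 0.44), and Psmb9 by 0.14 (SE 0.13) in the fit without a filter. At week 15 the microglial markers had medians of 0.95 with vehicle and 0.77 with G-CSF against WT mice, and -0.13 with G-CSF against vehicle. Their part in the immunoproteasome values was not tested.

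**Figure D5:**
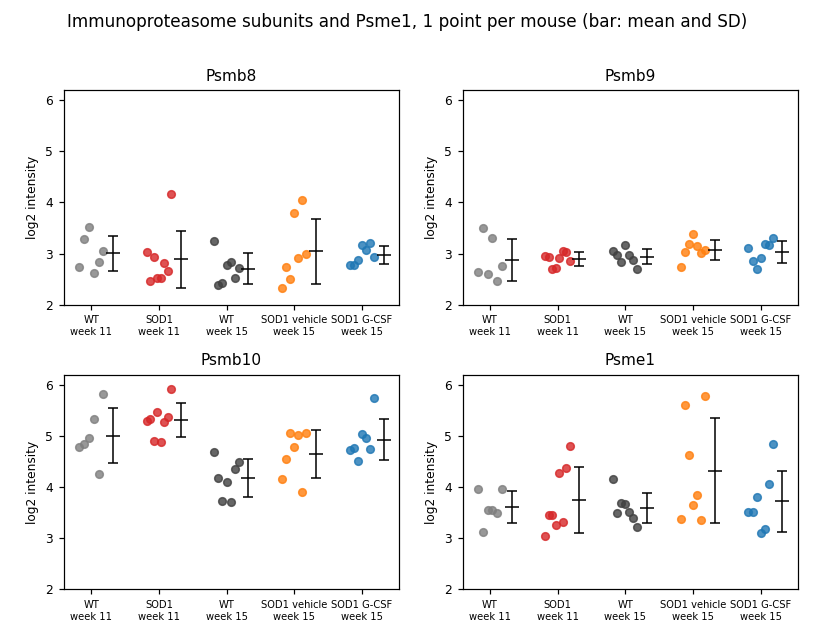
Log2 intensity of Psmb8, Psmb9, Psmb10 and Psme1 in every mouse by group, with the mean and SD as a bar and 1 y axis for all panels. Psmb10 was lowest in WT mice at week 15 (3.71 to 4.69), and Psme1 reached 5.78 in the vehicle group.

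The 13 filtered probe sets of the activators and the inhibitor had medians of 0.37 at week 11, -0.60 at week 15 and -1.02 between weeks. Psme3, the nuclear activator, was at 2.84 to 6.90 in WT mice at week 11 (median 5.85) and at 6.67 to 7.68 in SOD1 mice (median 7.36). Of the SOD1 mice 5 of 8 lay above every WT mouse, and the probe set was 3.34-fold higher (1.74, SE 0.42, adjusted p 0.0457). At week 15 it was at 3.94 to 6.52 in WT (median 5.67) and 3.22 to 5.98 with vehicle (median 4.51), a difference of -1.01 (adjusted p 0.172), and between weeks -2.75 (SE 0.60, adjusted p 0.0339). The value at 2.84 was WT mouse 6, without which the week 11 difference was 1.21 (adjusted p 0.132) and that between weeks -2.22 (adjusted p 0.0588). A brighter probe set of Psme3 had differences of 0.78 (SE 0.42), -0.78 (SE 0.41) and -1.56 (SE 0.59) in the same order, none of them called.

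Psme4, the activator linked to histone breakdown and DNA repair, had 6 filtered probe sets that did not run together. The one called at week 15 was at 5.63 to 6.83 in WT (median 6.19) and at 2.76 to 7.45 with vehicle (median 5.03). It was 2.55-fold lower (-1.35, SE 0.47, adjusted p 0.0982), with 1 vehicle mouse above every WT mouse, and the call was kept in 3 of 14 fits without 1 mouse. The brightest was called between weeks (-1.02, SE 0.31, adjusted p 0.0931), with -0.60 at week 15 (adjusted p 0.112), and kept the call in 8 of 28 such fits. A dim one lay above WT with vehicle (0.44, SE 0.15, adjusted p 0.0799), under the fold minimum. The inhibitor Psmf1 had -1.13 at its brightest probe set at week 15 (SE 0.52, adjusted p 0.223), where WT mice ran from 5.25 to 7.23 (median 6.71) and vehicle mice from 4.30 to 6.86 (median 5.40). Psme1, the interferon-inducible cap, had 0.73 (SE 0.33, adjusted p 0.214): vehicle mice ran from 3.37 to 5.78 (median 3.85) and WT mice from 3.23 to 4.16 (median 3.51).

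G-CSF was compared with vehicle in SOD1 mice at week 15. No proteasome probe set was called (limma), against 0.0383% of all probe sets (12 of 31352). At an unadjusted p under 0.05 there were 4 higher and 4 lower members, and the members' median difference was 0.07 against -0.00. The largest, for the chaperone Psmd9, lay lower by a log2 difference of -1.04 with G-CSF (SE 0.29, adjusted p 0.268), at 3.34 to 4.74 (median 3.77) against 3.56 to 6.01 (median 5.25) with vehicle. The Tukey comparison of the methods called this one, and so did the fit without vehicle mouse 1 (-1.27, adjusted p 0.0788). The largest in the other direction was Psmd10 (0.93, adjusted p 0.543), another chaperone. Psmd2, a base scaffold, was at 7.43 to 9.46 with vehicle (median 8.78) and at 8.16 to 9.57 with G-CSF (median 9.11), a difference of 0.52 (adjusted p 0.534).

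Against WT mice of week 15, no member was called with G-CSF either, while 1.13% of all probe sets were. At an unadjusted p under 0.05 there were 2 higher and 10 lower members, and the median was -0.12 against 0.01. The 2 comparisons of SOD1 with WT share the WT mice, and both comparisons of G-CSF share its mice, so their values for the 6 probe sets called with vehicle are only set side by side. For Psmb7 the difference from WT was -1.14 with vehicle and -0.66 with G-CSF (SE 0.32 each), and 0.48 between the treatments (adjusted p 0.725). For Psmd6 the same values were -0.83, -0.50 and 0.33 (adjusted p 0.677), and for Psmd7 -0.97, -0.55 and 0.42 (adjusted p 0.724). For Psmd12 they were -0.60, -0.51 and 0.09. For the called probe sets of Psmd4 and Psme4 they were -0.69, -0.46 and 0.23, and -1.35, -0.85 and 0.50. No difference between the treatments passed the test, which does not show that they acted alike. Without the 3 arrays that stood apart, Psmd11 (-1.32), Psmb2 (-0.86) and Psmb10 (0.75) were called in G-CSF against WT mice.

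WT mice of week 15 were also compared with WT mice of week 11, which differ in cohort as well as age. Called higher were 2 members and called lower 2, 5.19% of the filtered members, against 3.29% higher and 2.26% lower of all probe sets. Psmb1, at a dimmer probe set, was at 3.85 to 7.36 at week 11 (median 4.56) and at 6.65 to 7.61 at week 15 (median 7.09), a difference of 1.93 (SE 0.37, adjusted p 0.00194). Its brighter probe set had -0.28 (SE 0.17, adjusted p 0.431), so the probe sets disagree. The Psme4 probe set called lower with vehicle was 1.84 higher in WT mice of week 15 (SE 0.49, adjusted p 0.0242), at 5.63 to 6.83 against 3.81 to 5.20, without overlap. Psmb10 was lower by a log2 difference of -0.83 (SE 0.23, adjusted p 0.0349), at 3.71 to 4.69 against 4.25 to 5.83. Psma6 was lower by a log2 difference of -0.62 (SE 0.20, adjusted p 0.0797), at 8.57 to 9.43 against 8.91 to 10.03, and at a brighter probe set -0.53 (SE 0.11, adjusted p 0.0049) with no overlap. Catalytic Psmb6 had -0.48 (SE 0.12, adjusted p 0.0176), under the fold minimum, at 11.08 to 11.45 against 11.52 to 11.92. Psma5, at -0.55 (SE 0.15, adjusted p 0.0341), also showed no overlap and stayed under it. The ribosomal control probe set for 18S differed between the weeks as well, with means of 10.12 and 10.72 in the groups of week 11 and of 12.70 to 13.13 in those of week 15, and with it as a covariate 1 member was called, as were 0.115% of all probe sets. In that fit the differences of Psma6 and Psme4 turned to 0.19 and -0.32, neither called. The 18S values of WT mice did not overlap between weeks (at most 10.86 at week 11, at least 12.70 at week 15). Week and 18S can thus hardly be told apart in this comparison, and no conclusion is drawn from the lost calls or changed signs. Without the 3 arrays that stood apart 11 members were called, with 7.99% of all probe sets.

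Genes that assemble and regulate the proteasome were read from a list of 15, of which 13 had a probe set naming them alone and passed the filter. At week 11, 1 was called higher, at week 15 2 were called lower, with G-CSF against WT 1 lower and between weeks 2 lower (Nfe2l1 and Ngly1), where 1.13%, 4.2%, 0.778% and 2.15% of all probe sets were called in the same direction. Nfe2l1, the factor that switches on subunit genes, had means of 8.51 in WT and 9.28 in SOD1 mice at week 11, 0.78 higher (SE 0.20, adjusted p 0.0535). At week 15 its means were 9.30 and 9.14 (-0.16, adjusted p 0.678), and the difference between weeks was -0.94 (adjusted p 0.0833). The WT mice themselves differed, with Nfe2l1 0.79 higher at week 15 than at week 11 (SE 0.20, adjusted p 0.0173). Ngly1, the enzyme that strips sugars from Nfe2l1, had means of 8.87 in WT, 7.41 with vehicle and 7.60 with G-CSF at week 15. It was lower by a log2 difference of -1.45 with vehicle (SE 0.30, adjusted p 0.00475) and -1.27 with G-CSF (adjusted p 0.0368). Zfand5, which activates the 26S proteasome, was lower by a log2 difference of -0.69 with vehicle (adjusted p 0.0119). The core chaperone Pomp was called lower in WT mice of week 15 against those of week 11 (-0.60, adjusted p 0.0639). In that comparison 3.29% of all probe sets were called higher and 2.26% lower.

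Of 11 ubiquitin and shuttle genes 5 were measured. Vcp, the ATPase that pulls ubiquitinated proteins out of membranes and complexes, was called 0.91 higher in SOD1 mice at week 11 (adjusted p 0.0149). It was called lower between weeks (-1.09, adjusted p 0.0533), as was the shuttle Ubqln1 (-1.66, adjusted p 0.0533). Of all probe sets 1.13% were called higher at week 11 and 2.15% lower between weeks. At a mean between 8 and 10, where both genes lay, 5.9% were called lower between weeks. Of 12 genes of antigen presentation and interferon response 10 were measured. None was called at week 11 or at week 15, where 1.32% and 5.91% of all probe sets were. H2-D1 was called lower between weeks (-1.46, adjusted p 0.0995), beside 2.15% of all.

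Over 41 proteasome genes and 35 arrays the median pairwise correlation of deviations from the group means was 0.18, a description without a test, since these points share arrays and their spread. The median SD within groups was 0.42 for the members and 0.46 for all filtered probe sets.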

How the data were processed

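Motoneurons were dissected by laser, and their RNA was amplified in 2 rounds and hybridised to Affymetrix mouse genome arrays. Per the labels, the authors made log2 values with Affymetrix Expression Console and GCRMA, deposited for 45101 probe sets, and these were used as given. The number of arrays limits the precision. Probe sets were named by the platform annotation (34958 with 1 gene, 932 with several, 9211 with none), with symbols updated through Entrez IDs. Groups came from the sample titles. One mean per group was fitted over all 5 groups with limma 3.58.1 in R 4.3.3, and tested on simulated data first. The filter kept values over the 20th centile on at least 4 arrays and an SD over the 30th centile. The probe set that stands for a gene was its brightest filtered one. Named were all called members, the immunoproteasome, the activators and the catalytic subunits. Members and lists were chosen with earlier results of these data known. Alternatives were other thresholds, filters, scalings, covariates, weights and samples, the Tukey comparison of the methods, a replicate block and leaving out each mouse.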

Additional observations from a re-analysis of the deposited data

Results flagged for a closer look

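In the 5 groups of 21 named probe sets, 105 combinations, 16 held a mouse far from the rest of its group, where chance gives about 1 in 20. WT week 11 mouse 6 stood low for Psmd12 (8.80), Psmd6 (9.41), the brighter probe set of Psme3 (5.33) and Psmf1 (3.98). Vehicle mouse 3 stood low for Psmc5 (5.88) and the brighter Psme3 probe set (3.78), and vehicle mouse 6 for Psmd6 (8.44). Of the G-CSF mice, mouse 2 stood low for Psmd6 (8.31) and mouse 7 high for Psmb10 (5.75). In WT mice of week 15, mouse 2 stood low for Psmc2 (8.78), mouse 3 for the called Psme3 probe set (3.94) and mouse 4 for Psmf1 (5.25). In SOD1 mice of week 11, mouse 5 stood low for Psmc5 (8.50) and mouse 1 for the dimmer Psmd4 probe set (4.09), while mouse 1 stood high for Psmf1 (7.91) and mouse 8 for Psmb8 (4.17).

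The SOD1 effect differed between week 15 and week 11 by a tested interaction (limma, adjusted p under 0.1) for Psmc2 (-0.91), Psmc5 (-1.69), Psmd4 (-1.05 and -1.42), Psmd6 (-1.08), Psmd7 (-1.54), Psmb7 (-1.90), Psme3 (-2.75) and Psme4 (-1.02). Their levels are given by group above.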

How the results depend on the processing

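Counts of called members are given with the percentage of all probe sets called in either direction under the same setting. At week 11 (2, 1.32%) the count was 1 at an adjusted p under 0.05 (0.555%), without the filter (0.834%) and with quantile normalization (0.689%). It was also 1 with arrays scaled to 1 SD (0.839%), with the replicate block (0.494%) and with 18S as a covariate (1.15%). It was 0 on the groups of the contrast alone (0.925%) and with the array SD as a covariate (0.606%), and 5 with array weights (3.55%). The count at week 15 (6, 5.91%) was 3 at an adjusted p under 0.05 (3.32%) and 2 at a fold minimum of 2 (3.22%). It was 3 with array weights (4.98%) and 0 with the array SD (1.83%). Between weeks (9, 2.93%) it was 2 at an adjusted p under 0.05 (0.443%) and 5 with quantile normalization (1.05%) and with scaling (1.43%). It was 4 without the 3 arrays that stood apart (0.644%) and 0 with the array SD (0.00957%). For WT week 15 against week 11 (4, 5.56%) it was 9 with no fold minimum (6.79%) and 2 at a minimum of 2 (2.72%). It was 7 on the groups of the contrast alone (8.06%) and 15 with array weights (12%). It was 1 with 18S (0.115%) and 11 without the 3 arrays (7.99%). For G-CSF against vehicle (0, 0.0383%) it was 1 by Tukey comparison (1.13%). For G-CSF against WT (0, 1.13%) it was 1 by Tukey comparison (2.47%) and with a filter on the mean (2.14%). It was also 1 with array weights (2.61%) and with 1 median per gene (1.64% of genes), and 3 without the 3 arrays (2.92%). The Tukey comparison gives no value between weeks.

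The median at week 11 (0.25) was 0.13 without the 3 arrays, 0.15 with array weights, 0.16 without the filter and 0.0404 with the array SD. That at week 15 (-0.19) was -0.0999 without the filter and 0.00162 with the array SD, and that for G-CSF against WT (-0.12) was -0.068 without the filter and 0.0115 with the array SD. Between weeks (-0.48) it was -0.27 without the filter, -0.31 with quantile normalization, -0.34 with scaling, -0.33 with array weights, -0.0569 with the array SD and -0.35 without the 3 arrays. In WT mice (-0.07) it was -0.23 without the 3 arrays, -0.19 with array weights and 0.0213 with 18S, on the other side of 0. With 18S, Psma6 (0.19, adjusted p 0.969) and Psme4 (-0.32, adjusted p 0.981) in WT mice had the other sign. As 18S did not overlap between weeks, that fit can hardly tell it from week. The cause was not tested in any of these.

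Leaving out 1 mouse gave 0 to 2 calls at week 11 (median 0.13 to 0.30), 3 to 9 at week 15 (-0.29 to -0.16), 0 to 1 for G-CSF against vehicle (0.03 to 0.13) and against WT (-0.19 to -0.06), 3 to 13 between weeks (-0.56 to -0.36) and 3 to 8 in WT mice (-0.23 to -0.0402). The shares of all probe sets called in these fits were, in the same order, 0.469% to 1.8%, 4.02% to 7.4%, 0.0128% to 0.153%, 0.673% to 2.43%, 0.584% to 4.1% and 4.28% to 6.7%. Of 21 named calls 9 were kept in every such fit, and 0 under every one of the other alternatives. Mice of the same number did not deviate together (mean correlations of -0.03 to 0.02), so no sign of pairing by number was seen. With the replicate block 1, 4 and 7 members were called at week 11, week 15 and between weeks, beside 0.494%, 5.43% and 1.98% of all probe sets. Dim probe sets near the filter level and the number of arrays limit what could be called.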
